A study of Mus musculus with 66 samples.

Results

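The subject of this report is a stretch of mouse chromosome 8, from 19 to 21.8 Mb of the GRCm38 build, in which near-identical gene copies lie between clusters of defensin genes. Its 3 listed genes are 4930467E23Rik, Gm31371 and Gm21119. The members were all islands of both histone marks that the deposited lists place in this window, where an island is a stretch that the peak caller SICER joins, across short gaps, from 200 bp windows whose read counts pass its threshold. There were 2929 H3K9me3 islands and 1533 H3K36me3 islands, 4462 of the 2049788 islands listed in 44 libraries. The window was chosen by input density and island listing in earlier results of these data, so the listing of islands and the level of the input density are described below without a test. Tests are of treatment and sex, in fits over all regions of the genome.

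The tissue was prefrontal cortex (PFC) of adolescent male and female DBA/2J mice, an inbred strain. Ethanol mice received 4 g/kg ethanol (25% w/v) by gavage on intermittent days between postnatal day (PND) 29 and 42, the controls received water on the same days, and tissue was taken 24 h after the final dose. Each library came from 3 mice pooled within sex and treatment, with 6 ethanol and 5 water pools per sex. Every pool gave an H3K9me3 library, an H3K36me3 library and 1 input library of sonicated chromatin that was not precipitated, 66 samples in all.

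Defensins are short antimicrobial peptides. In the mouse, alpha-defensins are products of the Paneth cells of the small intestine and beta-defensins of epithelia such as the epididymis, and both families have multiplied by tandem duplication. H3K9me3 is a histone modification of heterochromatin and is laid over many repeated sequences and gene clusters, whereas H3K36me3 is placed along the bodies of transcribed genes. Input reads depend on how many DNA copies a sequence has and on how many of its reads the mapping keeps.

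The GENCODE annotation of the window holds 52 protein-coding genes, of which 22 are alpha-defensins (Defa), 14 are beta-defensins (Defb) and 3 are the listed genes. The window was described in 3 segments cut at the defensin genes. The first 0.498 Mb hold 12 beta-defensin genes. The next 1.39 Mb hold 4 protein-coding genes, the 3 listed ones and their copy Gm15319, and 25.1% of this listed-gene segment is assembly gap. The last 0.907 Mb hold all 22 alpha-defensin genes and 2 beta-defensin genes.

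All 3 listed genes are on the plus strand: 4930467E23Rik at chr8:19729576-19753527, Gm31371 at chr8:19903392-19925713 and Gm21119 at chr8:20614919-20640703. Gm15319 is on the minus strand at chr8:20337664-20363210. They are predicted or clone-named models, and no function is stated for them here. Their spliced transcripts, of 2514, 2088, 2522 and 2522 bases for 4930467E23Rik, Gm31371, Gm21119 and Gm15319, were 99.04 to 99.60% identical over aligned bases in every pair. Whole gene bodies were close in substitutions and differed more by insertions and deletions. Aligned to the genome, the 25785 bp body of Gm21119 found 7 stretches of at least 5 kb in the window, itself included, at 98.41% identity or more when each gap counts as 1 difference. When every gap base counts, the identity to Gm21119 was 91.3% for 4930467E23Rik, 97.5% for Gm31371, 98.6% for Gm15319 and 89.1% for the pseudogene Gm20778.

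The promoters of 3 of the copies were identical. RefSeq promoters (GRCm38.p6, 250 bases before to 50 bases after the start) were in the table for 4930467E23Rik, Gm15319 and Gm21119, and the 3 sequences of 300 bases had 0 differences. The shared sequence is printed 5′ to 3′ on the strand of the gene, with a CCAAT motif on the opposite strand, read as ATTGG, in capitals. It stands at chr8:19729326-19729625 (plus strand), chr8:20363153-20363452 (minus strand) and chr8:20614677-20614976 (plus strand).
Promoter of 4930467E23Rik, Gm15319 and Gm21119: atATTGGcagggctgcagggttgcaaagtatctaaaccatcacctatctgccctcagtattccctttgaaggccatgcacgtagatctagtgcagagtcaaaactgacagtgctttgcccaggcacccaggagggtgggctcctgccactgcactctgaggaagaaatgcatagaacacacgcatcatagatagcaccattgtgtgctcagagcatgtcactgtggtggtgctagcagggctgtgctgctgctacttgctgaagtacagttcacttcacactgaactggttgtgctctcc

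CCAAT or its reverse ATTGG, searched on both strands, occurs in 37.4% of the 32851 promoters of the table. The letters TATAAA (13.6% of promoters), CACGTG (7.15%) and GGGCGG (35.7%), searched in the same way, are not in this window of 300 bases. The promoter has 2 CG dinucleotides, against a median of 7 over all promoters, at a similar GC content (51.3% and a median of 52.7%), and 0 other promoters of the table have its sequence. Listed islands of both marks covered all 300 bases at each of the 3 places in 22 of 22 libraries.

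Inside the genes the copies differ by insertions, deletions and substitutions. A stretch of 100 intronic bases, read on the strand of each gene from GRCm38, is printed as an example of the substitutions and holds no gap. Capitals mark the base at which a copy differs from Gm21119, and each copy has 1 such base. The places are chr8:20621512-20621611 (plus strand) for Gm21119, chr8:19736164-19736263 (plus strand) for 4930467E23Rik, chr8:19906853-19906952 (plus strand) for Gm31371 and chr8:20356519-20356618 (minus strand) for Gm15319.
Gm21119: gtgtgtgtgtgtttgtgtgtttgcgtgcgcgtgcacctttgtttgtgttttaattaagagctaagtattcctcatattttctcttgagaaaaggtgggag
4930467E23Rik: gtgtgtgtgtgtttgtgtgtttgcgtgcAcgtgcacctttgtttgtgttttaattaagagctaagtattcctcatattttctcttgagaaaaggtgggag
Gm31371: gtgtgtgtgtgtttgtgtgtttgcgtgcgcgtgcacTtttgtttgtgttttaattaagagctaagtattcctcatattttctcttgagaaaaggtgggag
Gm15319: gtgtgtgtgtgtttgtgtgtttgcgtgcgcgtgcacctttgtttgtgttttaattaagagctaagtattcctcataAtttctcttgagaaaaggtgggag

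The lists were deep in reads and modest in enrichment. A library had 41364 to 72481 H3K9me3 islands or 19618 to 61911 H3K36me3 islands, and the listed islands held 5734011 to 14235444 and 1703000 to 4802640 ChIP reads. Islands with a false discovery rate (FDR) of at most 0.01 made up 66.5 to 88.1% of the H3K9me3 lists, other than female water replicate 2 with 31.0%. For H3K36me3 the share ran from 7.76% in male ethanol replicate 6 to 73.2%. H3K36me3 islands at that FDR touched the neuronal genes Map1b in 12, Rbfox3 in 11 and Gria2 in 9 of 22 libraries but covered at most 1.20% of a gene body, and the oligodendrocyte gene Mog had none in any library. Of 7 liver and intestine genes, Ttr had such an island in 1 library and the other genes in 0. The H3K36me3 lists thus checked the tissue only weakly.

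Islands of both marks covered more of the listed-gene segment than of the defensin segments. H3K9me3 islands covered 56.0% ± 1.1 (SD, n = 22) of the segment and H3K36me3 islands 53.5% ± 1.8, against 17.2% ± 3.6 and 7.10% ± 1.9 of the beta-defensin segment and 15.7% ± 2.4 and 6.54% ± 1.7 of the alpha-defensin segment. Over the whole window, H3K9me3 islands covered 1010 ± 47.2 kb and H3K36me3 islands 841 ± 37.4 kb. Over the window, 93.6 to 97.6% of the H3K36me3 length of a pool lay within its H3K9me3 islands and 69.1 to 86.8% of the H3K9me3 length within its H3K36me3 islands, and 592 kb were covered by both marks in all 22 pools. Where both marks of a pool listed an island with identical boundaries, the input count was the same in both lists, which shows that the marks share 1 input library and that their input values are not independent.

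Input reads over the listed genes far exceeded the level of a usual island. Input density is the number of input reads per kb of island, divided by the median of that density over the autosomal islands of the same library. Over the window it was 2.74 ± 0.14 (SD, n = 22, range 2.50 to 3.04) in the H3K9me3 lists and 2.81 ± 0.24 (2.49 to 3.31) in the H3K36me3 lists. Among 762 autosomal tiles, each as long as the window, 18 had an H3K9me3 input density at least as high (97.6th percentile). For H3K36me3 it was 17 of 753 tiles (97.7th percentile). The window was chosen by this density and its own stretch was left among the tiles, so the rank only describes it. The excess was mostly in the middle segment. Input density was 3.25 ± 0.18 in the listed-gene segment, 0.943 ± 0.051 in the beta-defensin segment and 1.02 ± 0.036 in the alpha-defensin segment (H3K9me3 lists, n = 22), and the listed-gene value of every library was above the highest alpha-defensin value, 1.08. Bins of 100 kb that start 1900 and 2000 kb into the window lie in the alpha-defensin segment. They had 1.23 and 1.47 in the H3K9me3 lists and 1.45 and 1.49 in the H3K36me3 lists. Near the borders of the window the islands were ordinary. The first H3K9me3 island inside the start had a median input density of 0.902 over libraries and the last before it 1.10, while the last inside the end had 0.736 and the next beyond it 0.889.

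**Figure D1:**
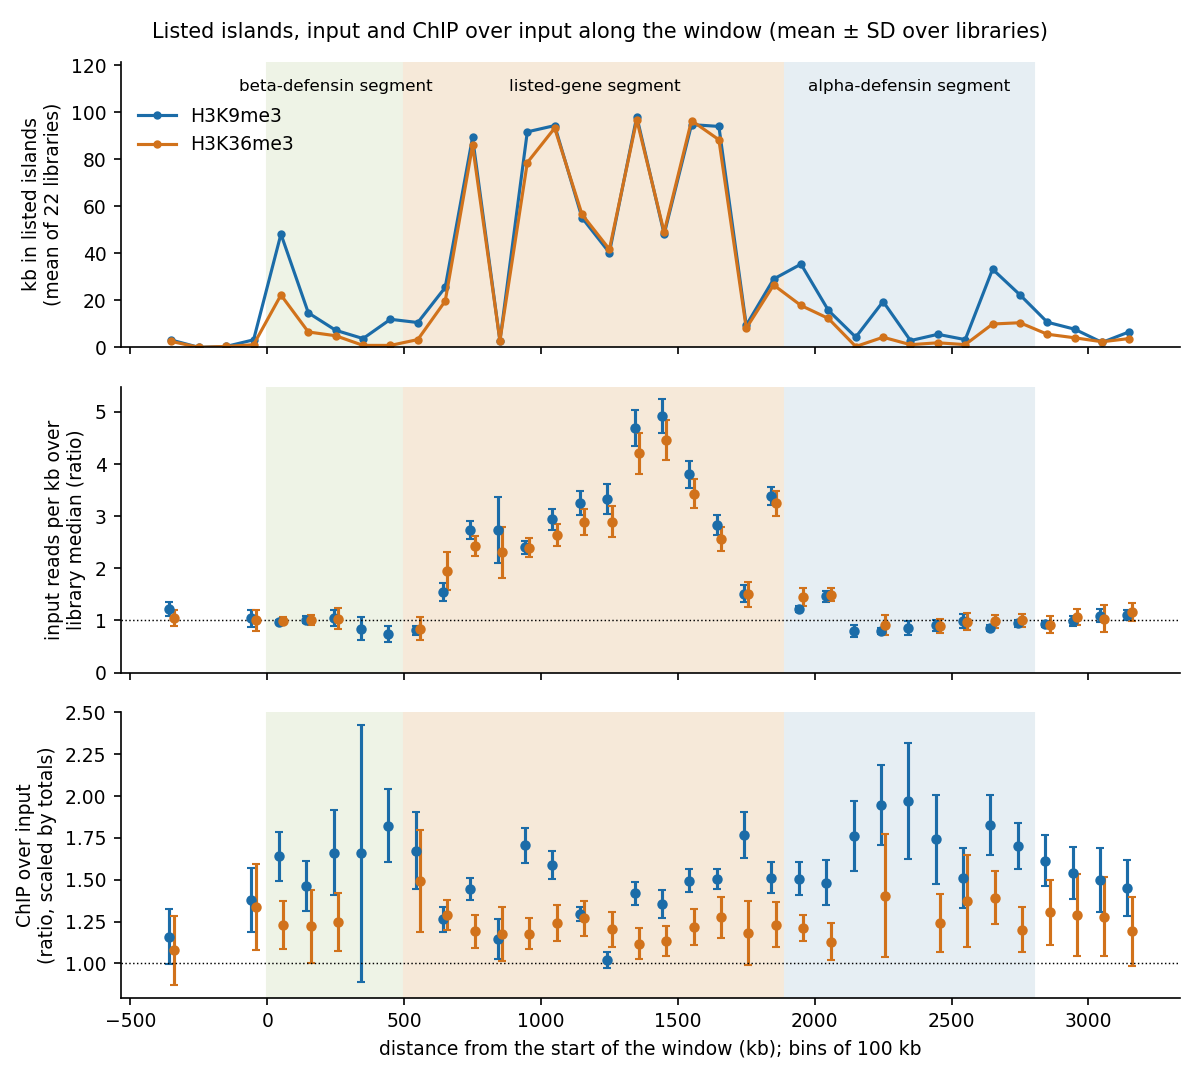
Islands, input density and ChIP over input in bins of 100 kb, by distance in kb from the start of the window (points, mean of 22 libraries; error bars, SD; bins with islands in fewer than 11 libraries are left out of the lower panels; dotted line, ratio of 1). Shading marks the beta-defensin, listed-gene and alpha-defensin segments. Input density rises within the listed-gene segment, whose mean was 3.25 in the H3K9me3 lists, and lies near 1 over most of the alpha-defensin segment.

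The ChIP reads followed the input there. The ratio of ChIP to input reads, scaled by the constant that the authors' fold values use in each library, was 1.47 ± 0.064 over the window for H3K9me3, where the median island of a library had 1.49 ± 0.10. For H3K36me3 the ratio was 1.20 ± 0.096 against a library median of 1.31 ± 0.16. Among the same autosomal tiles the window was at the 81.1th percentile of H3K9me3 over input and at the 11.2th percentile of H3K36me3 over input. In ChIP reads alone, the window held 1.34% of all H3K9me3 island reads on 0.585% of the island length.

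Among the 4 genes, the input density was highest over Gm15319 and lowest over 4930467E23Rik. In the H3K9me3 lists it was 2.87 ± 0.26 (2.31 to 3.36) over 4930467E23Rik, 4.03 ± 0.24 (3.41 to 4.54) over Gm31371, 3.43 ± 0.23 (2.79 to 3.86) over Gm21119 and 4.81 ± 0.36 (4.13 to 5.78) over Gm15319 (n = 22). Neighbours in this order overlapped across libraries. In the H3K36me3 lists the order was the same, with 2.41 ± 0.26, 3.84 ± 0.34, 3.08 ± 0.29 and 4.30 ± 0.40 in turn. All 4 gene bodies had islands of both marks in 22 of 22 libraries. H3K9me3 islands covered 80.5% of 4930467E23Rik, 91.7% of Gm31371 and 100% of Gm21119 and Gm15319.

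Gm31371 had the highest H3K9me3 over input of the 4 genes, 1.68 ± 0.098, against 1.46 ± 0.091 for 4930467E23Rik, 1.44 ± 0.056 for Gm21119 and 1.42 ± 0.074 for Gm15319. H3K36me3 over input was 1.22 ± 0.11 for 4930467E23Rik, 1.20 ± 0.13 for Gm31371, 1.26 ± 0.12 for Gm21119 and 1.12 ± 0.091 for Gm15319, and the ranges of the 4 genes overlapped. These are ratios per gene body and not levels of transcription.

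**Figure D2:**
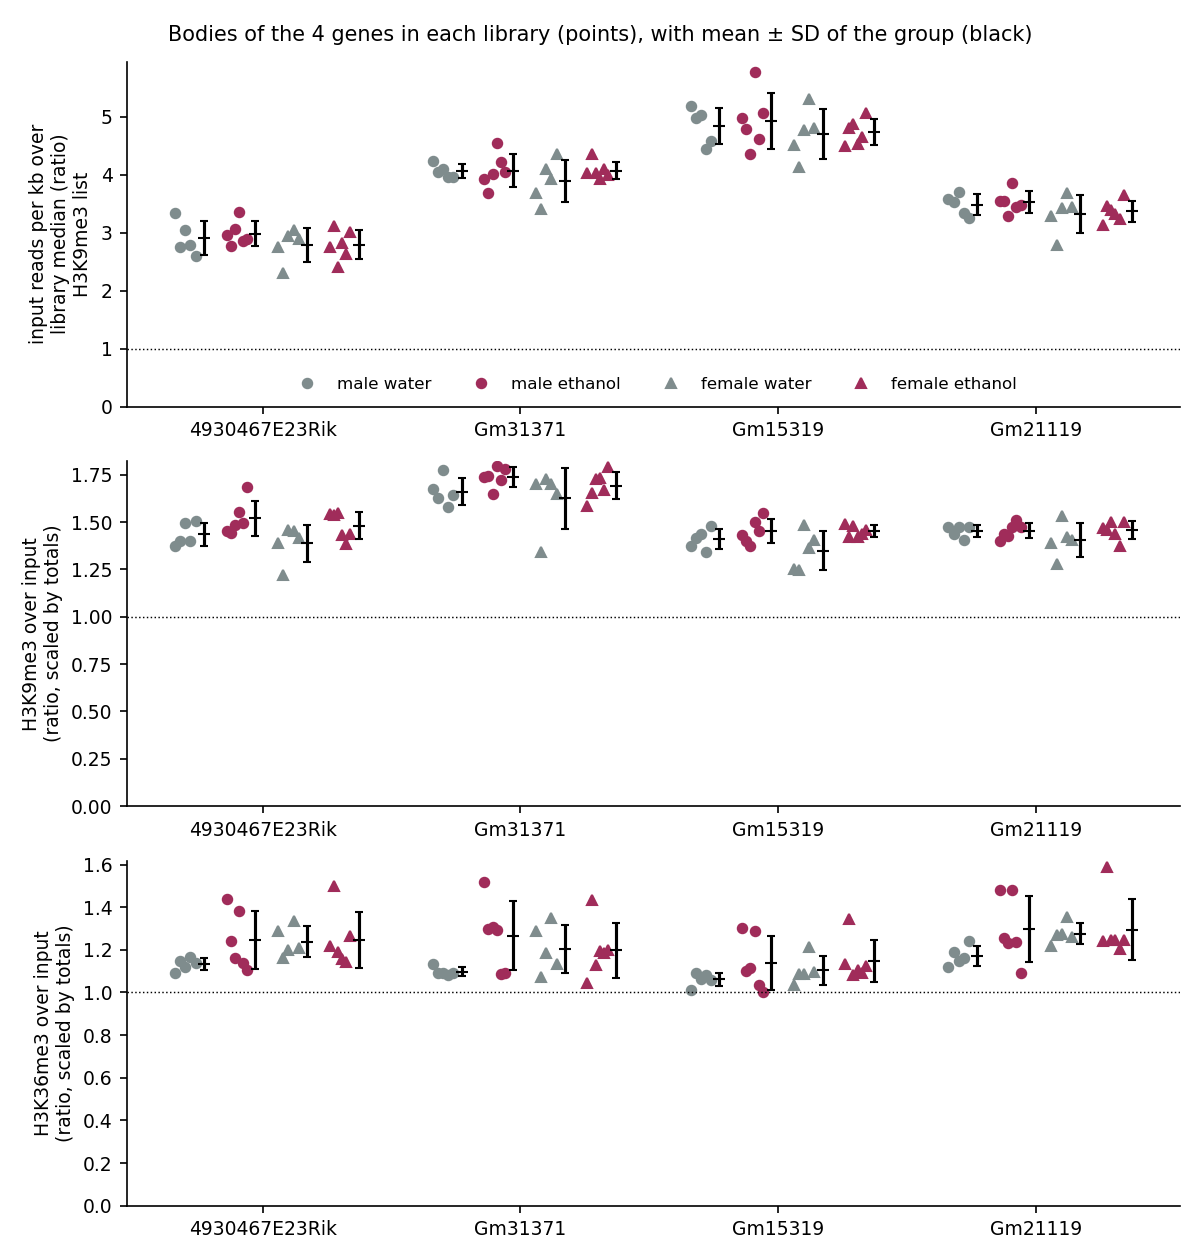
Input density (top; H3K9me3 lists), H3K9me3 over input (middle) and H3K36me3 over input (bottom) for each gene and library (points; circles male, triangles female; grey water, red ethanol; black, mean ± SD of 6 ethanol or 5 water libraries). Points of the water and ethanol groups overlap for each gene and sex in all 3 panels, and every input density is above 2.

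Most defensin genes had no island. Of the 22 alpha-defensin genes, 20 had no H3K9me3 island over the body in any library, Defa17 had islands in 3 libraries and Defa26 in 1, and 22 of 22 had no H3K36me3 island. Of the 14 beta-defensin genes, 7 had an H3K9me3 island in at least 1 library and 3 had islands in at least 11 libraries. These were Defb39 (22 libraries, input density 1.01 ± 0.11, H3K9me3 over input 1.58 ± 0.21), Defb1 (15 libraries, 0.739 ± 0.15 and 1.74 ± 0.43) and Defb7 (13 libraries, 0.897 ± 0.18 and 1.61 ± 0.33). Defb39 was also the only defensin gene with H3K36me3 islands in at least 11 libraries. The median body length is 0.967 kb for the alpha-defensin genes, 2.81 kb for the beta-defensin genes and 23.95 kb for the listed genes, and the part of length in these counts was not tested. None of the defensin genes with an island approached the input density of the listed genes, and those without an island have no input value here.

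Other copies of the same body gave a further view of the input. In the window these were the pseudogenes Gm20778 (chr8:20034930-20063170, 99.58% identity to Gm21119, input density 3.14 ± 0.29 in the H3K9me3 lists) and Gm20946 (chr8:20828007-20835690, 99.58%, 3.70 ± 0.24), and an unannotated stretch at chr8:20493136-20505923 (99.25%, 4.47 ± 0.32). Outside the window, further along chromosome 8, the same body aligned at 97.17% to Gm9495 (chr8:69427980-69453573, minus strand) and at 97.34% to Gm7697 (chr8:69481346-69522984, minus strand). H3K9me3 islands covered only 14.6% of Gm9495 and 20.8% of Gm7697, with an input density of 1.48 ± 0.27 and 1.21 ± 0.17. The 7 copies in the window thus ranged from 2.87 to 4.81 and those outside from 1.21 to 1.48. The copies share sequence and libraries and are no independent replicates.

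The authors kept H3K9me3 reads that mapped to a single location, so the share of 150-base sequences (the read length) that occur once in GRCm38 was counted. It was 65.2% over the window, 98.0% over the next 2.8 Mb, 94.0% in the beta-defensin segment, 54.9% in the listed-gene segment and 61.2% in the alpha-defensin segment. Of the genes, 4930467E23Rik had 60.7%, Gm31371 49.4%, Gm15319 27.9% and Gm21119 22.0%. Islands nevertheless lay on the repeated sequence. Of the 200 bp bins of the listed-gene segment in which every 150-mer is unique, 25.9% were in H3K9me3 islands of all 22 libraries, against 80.2% of bins with some repeated 150-mers and 81.4% of bins in which every 150-mer is repeated. For H3K36me3, whose mapping filter is not given in the sources used here, the shares were 18.4%, 74.7% and 78.5%.

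The input density of the segment rose as its sequence became less unique. In H3K9me3 islands of the listed-gene segment, it was 1.69 ± 0.10 where at least 80% of 150-mers were found once, 2.66 ± 0.19 between 50 and 80%, and 3.69 ± 0.25 below 50% (n = 22). In the alpha-defensin segment the values were 1.19 ± 0.049, 0.869 ± 0.062 and 0.863 ± 0.036, and in the beta-defensin segment 0.882 ± 0.056, 1.21 ± 0.17 and 1.03 ± 0.071. Islands with under 50% of 150-mers found once covered 547 kb of the listed-gene segment per library and 45.4 kb of the alpha-defensin segment. H3K9me3 over input in the listed-gene segment was 1.65 ± 0.11, 1.41 ± 0.067 and 1.44 ± 0.057 over the same classes. The lists hold read counts per island and not the reads. Extra copies in DBA/2J that the reference lacks thus cannot be told apart in them from reads placed at a near-identical copy. The reference strain is C57BL/6J, and the part of either in the input density was not tested.

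**Figure D3:**
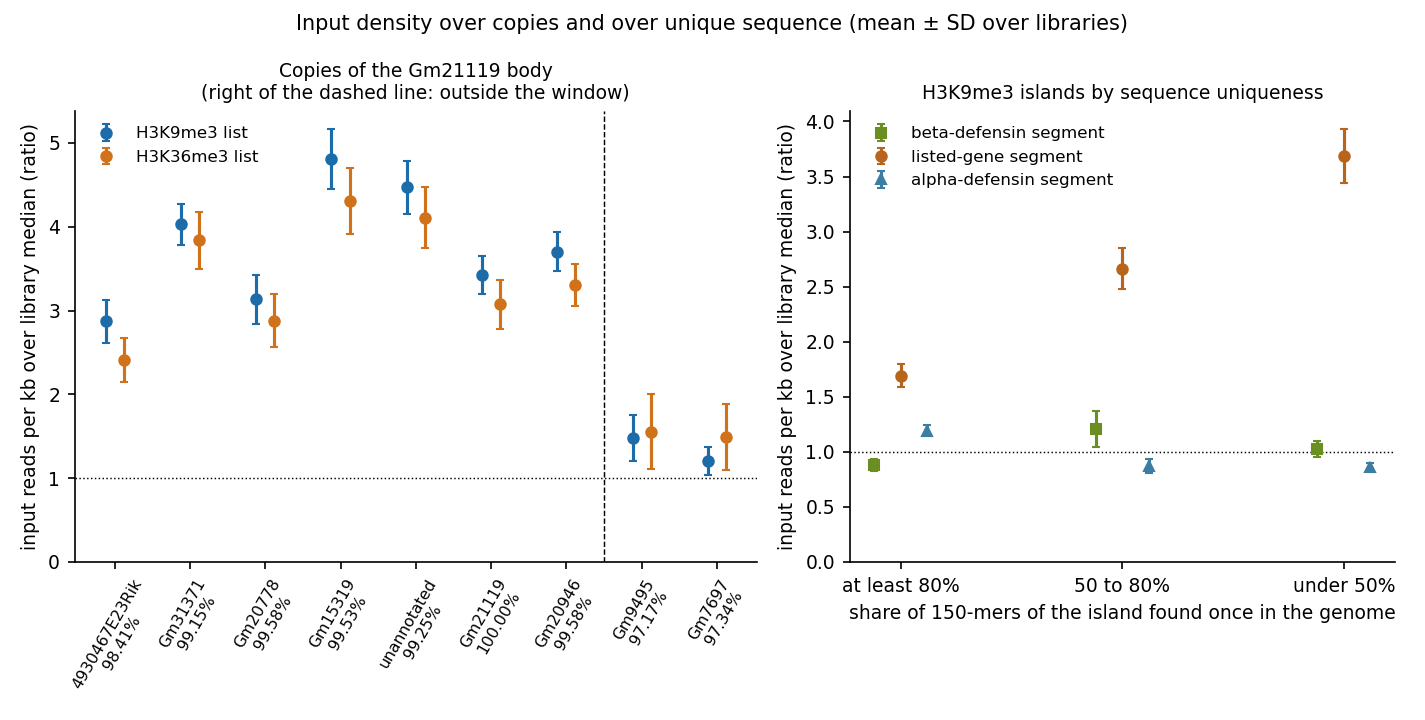
Left, input density over each copy of the Gm21119 body with its identity to Gm21119; right, input density of H3K9me3 islands by the share of their 150-mers found once in the genome, for each segment (points, mean over libraries; error bars, SD; dotted line, ratio of 1). The 7 copies in the window lie at 2.87 or above in the H3K9me3 lists and the copies outside it at 1.48 or below, and the listed-gene segment goes from 1.69 to 3.69 as its islands become less unique.

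The first comparison between treatments asked whether the input density, a possible sign of copy number, differed. The sign is weak, since the median of the same density over X-linked islands did not part the sexes. In the H3K9me3 lists that median was 0.82 to 0.97 in males and 0.85 to 0.91 in females. Overlap of the treatments therefore does not show equal copy number. In males the H3K9me3-list input density of the window was 2.60, 2.66 and 2.90 (lowest, median and highest of 6 ethanol libraries) and 2.62, 2.68, 2.77, 2.87 and 2.93 in the 5 water libraries. In females it was 2.50, 2.73 and 2.88 with ethanol and 2.52, 2.70, 2.73, 2.84 and 3.04 with water. The treatments overlapped in both sexes. The means were 2.72 ± 0.14 with ethanol and 2.77 ± 0.13 with water in males, and 2.71 ± 0.13 and 2.76 ± 0.19 in females, differences smaller than the SD of either group. In the H3K36me3 lists they were 2.82 ± 0.29 and 2.87 ± 0.29 in males and 2.68 ± 0.12 and 2.88 ± 0.25 in females, where the difference was -0.198 and the groups overlapped. Female water replicates 4 and 5 had 3.20 and 3.08 there, and the other female water libraries 2.62 to 2.78. Without female water replicate 2, the library with few islands at the FDR, the female difference in the H3K9me3 lists was -0.111 in place of -0.0503, without female water replicate 4 it was 0.0178, and with islands at the FDR it was -0.211.

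Nor did the genes part the treatments by input. In males, Gm21119 had an input density of 3.53 ± 0.19 with ethanol and 3.48 ± 0.18 with water, Gm31371 4.07 ± 0.29 and 4.06 ± 0.12, and 4930467E23Rik 2.99 ± 0.21 and 2.91 ± 0.29. In females the values were 3.37 ± 0.18 and 3.32 ± 0.33, 4.07 ± 0.15 and 3.90 ± 0.37, and 2.79 ± 0.25 and 2.79 ± 0.29. Groups overlapped for every gene.

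**Figure D4:**
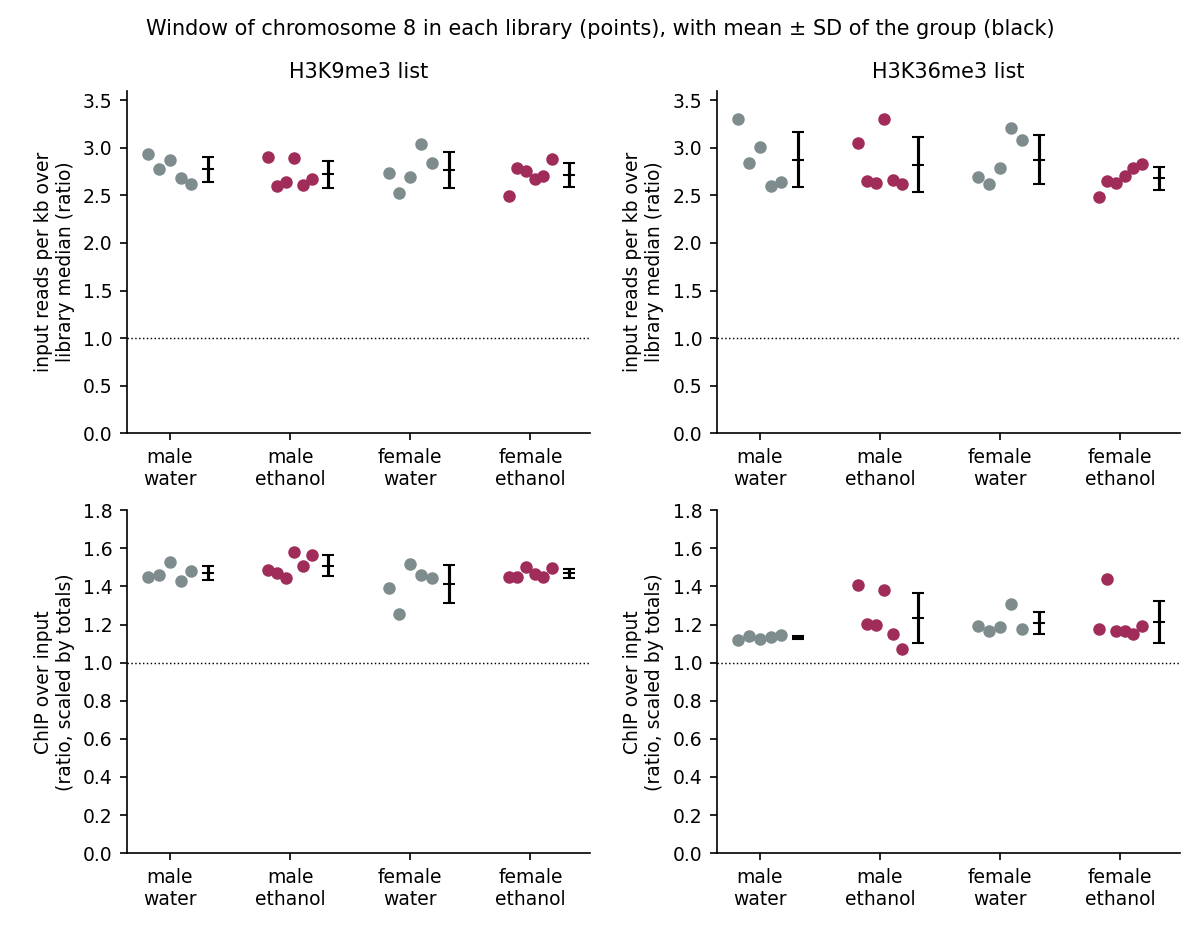
Input density (top) and ChIP over input (bottom) of the window in each H3K9me3 (left) and H3K36me3 (right) library, by sex and treatment (points, libraries; black, mean ± SD of 6 ethanol or 5 water libraries; dotted line, ratio of 1). Every library has an input density of 2.49 or more, and the treatments overlap in each panel.

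Input was then tested region by region over the genome with edgeR, on the regions that H3K9me3 islands of at least 11 of 22 libraries cover and in which every library of the sex has an island. In males, 3 of 82 window regions were at an unadjusted p of 0.05 or lower, against 3.45% of all 27938 regions. In females it was 0 of 70, against 3.99% of 27037, and DESeq2 called 1 of the 70. No region of the window passed the adjustment over all regions in either sex with edgeR or DESeq2. The male regions were chr8:21274001-21278400 near Defa3 (its values are given with those of H3K9me3), chr8:20309401-20316600 over the lincRNA Gm26804, which also overlaps the Gm15319 body (251 ± 11 CPM, reads scaled to a common library total, with ethanol and 214 ± 33 with water, overlapping, log2 ratio 0.23, SE 0.10), and chr8:19075801-19078000, 10991 bp from Defb39 (9.08 ± 0.96 and 11.7 ± 2.0 CPM, overlapping, log2 ratio -0.36, SE 0.16). Their edgeR adjusted p was 1.00. The median log2 ratio of ethanol to water input over the window regions was 0.01 in males and -0.05 in females. It was -0.03 in males without male ethanol replicate 1, -0.04 without TMM factors and -0.02 with islands at the FDR, and 0.00 in females without female water replicate 4. Female against male input in the same kind of fit gave 3 of 69 window regions at the unadjusted p, against 9.11% of 22078. After adjustment it was 0, against 3.67%. Of 1435 X-linked regions, 758 passed the adjustment, and the median over all 1435 was 0.37 on the log2 scale. With islands at the FDR, 339 of 430 X-linked regions passed, and the median over all 430 was 0.996.

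Island numbers overlapped between the treatments. The number of H3K9me3 islands in the window was 113 to 165 with ethanol and 114 to 142 with water in males, and 119 to 160 and 94 to 154 in females, with overlap in both sexes. For H3K36me3 it was 67.5 ± 6.7 and 72 ± 18 in males and 74.2 ± 25 and 64.6 ± 17 in females. The share of libraries with an island differed between ethanol and water by up to 73.3 percentage points at single positions for H3K9me3 and up to 75 points for H3K36me3, and by -65 and -41.7 points in the other direction, and no position was in the islands of all ethanol libraries and of no water library of a mark, or the reverse.

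The ratio of ChIP to input over the window overlapped between the treatments. For H3K9me3 it was 1.51 ± 0.054 with ethanol and 1.47 ± 0.037 with water in males, and 1.47 ± 0.024 and 1.41 ± 0.099 in females, and the groups overlapped. Female water replicate 2 was the lowest at 1.26, with 1.39 to 1.52 in the other water libraries. Divided by the median ratio of the library, ethanol was the lower group, with 0.992 ± 0.028 and 0.997 ± 0.051 in males and 0.970 ± 0.027 and 0.982 ± 0.065 in females, with overlap. This order turned without male ethanol replicate 4 or male water replicate 2, 4 or 5 (differences up to 0.0056), and without female water replicate 2 (0.0149). For H3K36me3 in females the undivided ratio was 1.21 ± 0.11 with ethanol and 1.21 ± 0.059 with water, and the divided one 0.959 ± 0.13 and 0.903 ± 0.054, a difference of 0.0559 that was 0.0059 without female ethanol replicate 2. In males the undivided H3K36me3 ratios of the 5 water libraries were close together at 1.12 to 1.14, and 5 of 6 ethanol libraries (1.15 to 1.41) were above all of them and the remaining one, replicate 6, below at 1.07. Divided by the median ratio of the library, the male H3K36me3 values were 0.947 ± 0.066 with ethanol and 0.884 ± 0.14 with water and overlapped, and their difference of 0.0637 was 0.0053 without male water replicate 1. That median ran from 1.05 to 1.64 with ethanol, where the 2 libraries of highest median (replicates 1 and 4) also had the highest window ratios, and from 1.15 to 1.72 with water, where the window ratio stayed at 1.12 to 1.14. Its part in the difference was not tested.

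The listed genes followed the window. H3K36me3 over input of Gm31371 was 1.27 ± 0.16 with ethanol and 1.10 ± 0.020 with water in males, with 4 of 6 ethanol libraries above all water libraries, and 1.20 ± 0.13 and 1.21 ± 0.11 in females. For Gm21119 it was 1.30 ± 0.15 and 1.17 ± 0.047 in males and 1.30 ± 0.15 and 1.28 ± 0.050 in females, where ethanol replicate 2 had 1.59 and the other ethanol libraries 1.21 to 1.24, against 1.22 to 1.36 with water. For 4930467E23Rik it was at most 1.44 with ethanol and 1.16 with water in males, with minima of 1.11 and 1.09, and 1.14 to 1.501 and 1.16 to 1.34 in females. H3K9me3 over input of Gm31371 was 1.74 ± 0.052 and 1.66 ± 0.072 in males and 1.69 ± 0.073 and 1.63 ± 0.16 in females, where water replicate 2 had 1.34 and the other water libraries 1.65 to 1.73. Ethanol and water overlapped in all of these.

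Whether ethanol changed the occupancy of either mark was tested on the ChIP counts of regions in each sex, with p-values adjusted over all regions of the genome. No region of the window passed that adjustment for either mark in either sex, with edgeR or with DESeq2. For H3K9me3, 4 of 82 window regions in males were at an unadjusted p of 0.05 or lower (3 higher and 1 lower with ethanol), against 2.95% of 27958 regions tested. In females it was 3 of 70 (1 higher), against 3.99% of 27242. For H3K36me3 it was 2 of 33 in males (0 higher), against 5.68% of 7533, and 1 of 33 in females (1 higher), against 3.61% of 9019. The shares in the window, each of 1 to 4 regions, were near those of the genome. Without male water replicate 2 the male H3K9me3 count was 7 of 82, a larger share than the 848 of 27959 genome-wide. Without male water replicate 5 the male H3K36me3 count was 0 of 33, against 406 of 7533. The median log2 ratio of ethanol to water over window regions was 0.02 (males) and -0.06 (females) for H3K9me3 and -0.02 and 0.07 for H3K36me3. These medians did not hold their sign or size in all alternatives. The male H3K9me3 median was -0.02 without male ethanol replicate 1 or male water replicate 1 and -0.01 with islands at the FDR, and the female one -0.02 without female water replicate 4. The male H3K36me3 median was 0.14 without TMM factors, with 29 of 33 regions above 0 in place of 11 and 1 region called, which was higher, and 0.07 with islands at the FDR. The female H3K36me3 median was 0.01 without female ethanol replicate 2, 0.03 without female water replicate 1 and -0.01 with islands at the FDR. With limma on ChIP over input the medians in males and females were 0.003 and -0.02 for H3K9me3 and 0.01 and 0.06 for H3K36me3.

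**Figure D5:**
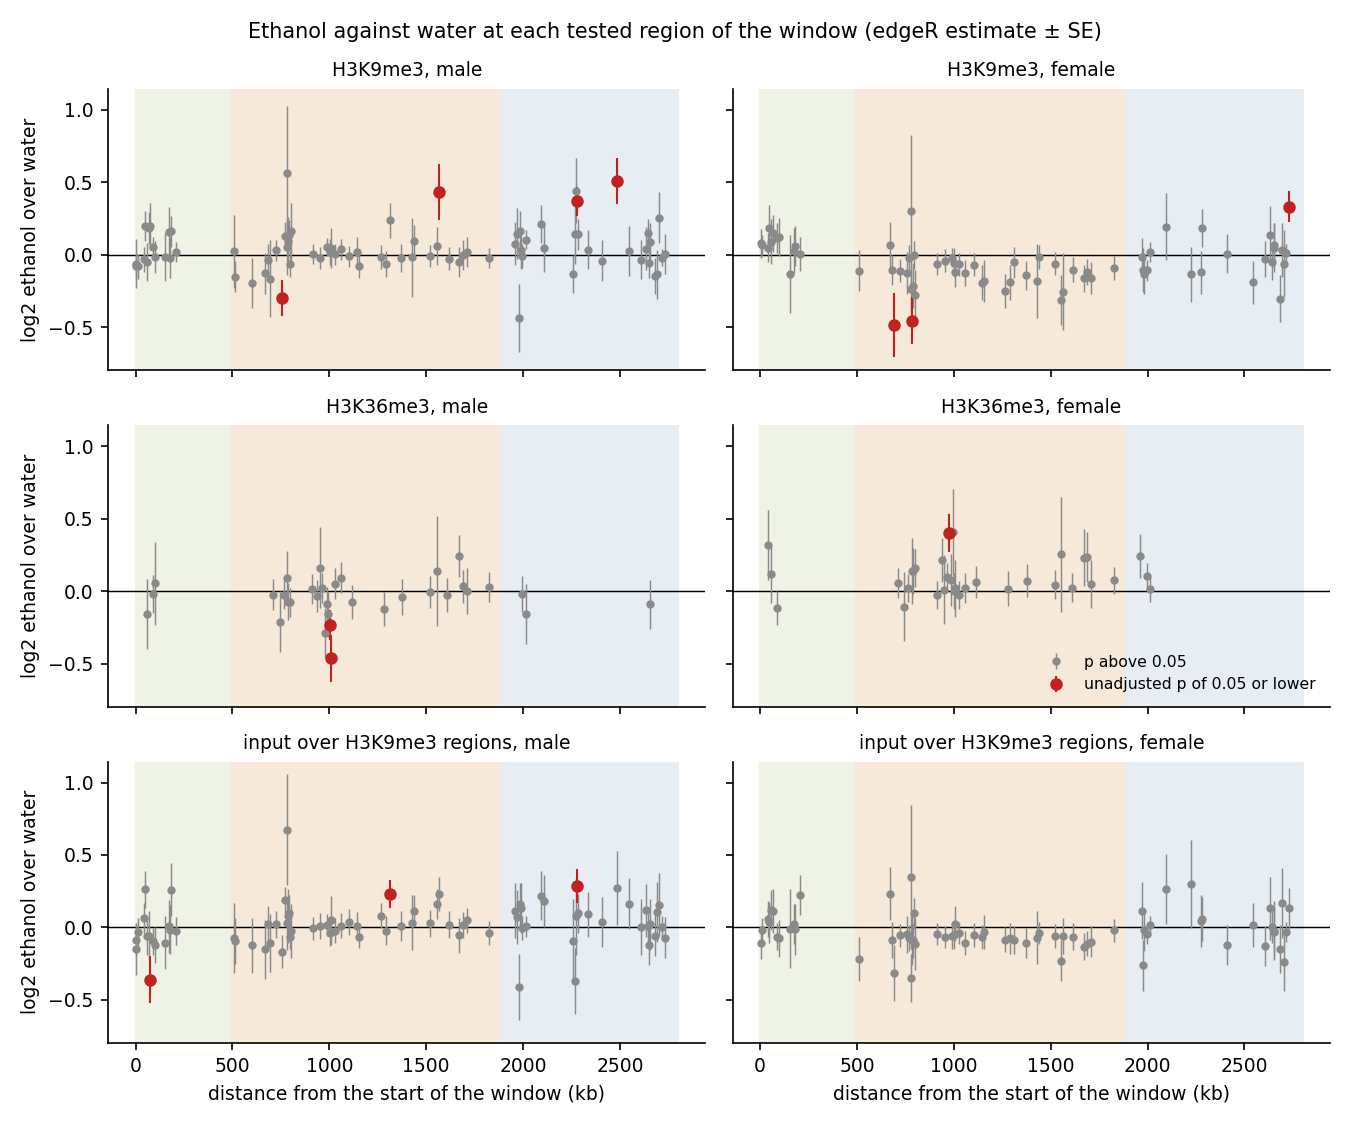
Ethanol against water at every tested region of the window, as the edgeR log2 ratio ± SE, by distance in kb from the start of the window, for H3K9me3, H3K36me3 and input in males and females (red, unadjusted p of 0.05 or lower; grey, above 0.05). Shading marks the 3 segments. The few red points stand singly along the window, 4 and 3 for H3K9me3, 2 and 1 for H3K36me3, and 3 and 0 for input in males and females.

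Regions over the listed genes were chosen with earlier results known and are given as estimates. Over Gm21119, the H3K9me3 region of 89.2 kb at chr8:20571801-20661000 had a log2 ratio of -0.03 (SE 0.08) in males and -0.10 (SE 0.09) in females, and the H3K36me3 region of 103 kb at chr8:20558001-20661000 had -0.02 (SE 0.12) and 0.02 (SE 0.10). The difference between the sexes for H3K36me3 there was 0.06 (SE 0.14), given as an estimate because this term was known from earlier results. Over Gm31371, the H3K9me3 regions at chr8:19903201-19923200 and chr8:19925201-19979000 lay between -0.06 and 0.01 in both sexes, and the H3K36me3 region at chr8:19903401-19921200 had 0.01 (SE 0.10) and -0.03 (SE 0.10). The promoter copy at 4930467E23Rik lies in the H3K9me3 region chr8:19698401-19747200, with 0.03 (SE 0.07) in males and -0.11 (SE 0.08) in females.

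The H3K36me3 regions over this gene, chr8:19680001-19740000, chr8:19740601-19747000 and chr8:19751601-19777200, had -0.03 (SE 0.11), -0.21 (SE 0.21) and -0.02 (SE 0.10) in males and 0.06 (SE 0.10), -0.11 (SE 0.24) and 0.02 (SE 0.10) in females.

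The H3K9me3 region that starts in the end of 4930467E23Rik and lies mostly beyond it was at the unadjusted threshold in males. H3K9me3 in this region, chr8:19751601-19762800, was 145, 149 and 209 CPM (lowest, median and highest) with ethanol and 157, 170, 174, 231 and 244 CPM with water, so the groups overlapped and ethanol replicate 1 was the high library of its group. The log2 ratio was -0.30 (SE 0.13, edgeR adjusted p = 0.999). Input over the same region went the same way, at -0.17 (SE 0.12), and with input taken into account the ratio was -0.14 (limma adjusted p = 0.940). It did not pass the unadjusted threshold without male ethanol replicate 2, 3, 5 or 6 or male water replicate 1 or 5. In females it was -0.12 (SE 0.14, edgeR adjusted p = 0.999).

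The smallest p-values for H3K9me3 in males lay in the alpha-defensin segment. Between genes, 9009 bp from Defa3, the region chr8:21274001-21278400 had 31.9, 33.1 and 35.95 CPM with ethanol and 20.2, 24.8, 26.5, 26.8 and 30.3 CPM with water in males. The groups did not overlap, and the log2 ratio was 0.37 (SE 0.10, edgeR adjusted p = 0.999). Input at this region was also higher with ethanol and did not overlap, with 23.4 to 26.5 CPM against 18.03 to 22.8 CPM (log2 ratio 0.29, SE 0.12, edgeR adjusted p = 1.00), and H3K9me3 over input had a log2 ratio of 0.09 (limma adjusted p = 0.968). Between genes, 25041 bp from Gm7849, the region chr8:21481601-21482200 of 0.6 kb had 6.26 to 8.17 CPM with ethanol and 3.78 to 6.07 CPM with water in males, without overlap (log2 ratio 0.51, SE 0.16, edgeR adjusted p = 0.999), and 0.15 over input (limma adjusted p = 0.962). The fourth male region at the unadjusted threshold, named after its values were seen, was chr8:20558001-20571600 over the pseudogene Gm21092, with 228 ± 80 CPM with ethanol and 169 ± 27 CPM with water, overlapping (log2 ratio 0.43, SE 0.19, edgeR adjusted p = 0.999).

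In females the smallest p-value was at chr8:21727401-21733000, 1494 bp from Defa24. H3K9me3 was 35.1, 39.4 and 42.4 CPM with ethanol and 25.6, 27.7, 28.6, 34.4 and 38.1 CPM with water, where 4 of 6 ethanol libraries exceeded all water libraries (log2 ratio 0.33, SE 0.11, edgeR adjusted p = 0.999). Over the pseudogene Gm10060, the region chr8:19783201-19785000 was lower with ethanol, at 15.5 ± 3.0 against 21.3 ± 3.9 CPM (log2 ratio -0.46, SE 0.16), and so was chr8:19687401-19697800 over the pseudogene Gm6483, at 57.1 ± 14 against 80.1 ± 28 CPM (log2 ratio -0.48, SE 0.22). Both had overlapping groups, the Gm6483 region missed the unadjusted threshold when any of 8 of the 11 libraries was left out, and both had an edgeR adjusted p of 0.999. On H3K9me3 over input, the region near Defa24 had 0.24 and that over Gm10060 -0.32 (limma adjusted p = 0.971 for both). The region over Gm6483 had -0.12 over input (limma adjusted p = 0.972), with input itself at -0.31 (SE 0.19).

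For H3K36me3, the regions of smallest p were not on the listed genes. In males, chr8:20005801-20011000 over the pseudogene Gm40466 was lower with ethanol, at 109, 123 and 173 CPM against 146, 154, 167, 184 and 247 CPM with water (log2 ratio -0.46, SE 0.16, edgeR adjusted p = 0.85), with overlap. Its neighbour chr8:19998201-20004800, over the same pseudogene, had 177 to 206 CPM with ethanol and 209 to 245 CPM with water, without overlap (log2 ratio -0.23, SE 0.10, edgeR adjusted p = 0.85). On ChIP over input these regions had -0.13 (limma adjusted p = 0.895) and -0.12 (limma adjusted p = 0.904), and without TMM scaling factors the ratios were -0.30 and -0.05. The first missed the unadjusted threshold without male water replicate 5, and the second without male ethanol replicate 1, 2 or 4 or male water replicate 1, 4 or 5.

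The region chr8:19975001-19978600, which lies between genes 49288 bp from Gm31371, had the lowest p for H3K36me3 in females. It had 93.7, 104 and 143 CPM with ethanol and 76.1, 78.0, 78.1, 79.2 and 99.4 CPM with water, overlapping only through water replicate 5 (log2 ratio 0.40, SE 0.13, edgeR adjusted p = 0.995). In males it was 93.6 ± 14 CPM with ethanol and 115 ± 29 CPM with water (log2 ratio -0.29, SE 0.17, edgeR adjusted p = 0.886). The ChIP over input estimates were 0.06 in females (limma adjusted p = 0.987) and -0.25 in males (limma adjusted p = 0.755).

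The difference of the ethanol effect between the sexes, female minus male, was tested as an interaction. It was at the unadjusted threshold in 2 of 69 H3K9me3 regions of the window (0 higher), against 3.63% of 22078, and in 1 of 31 H3K36me3 regions, against 5.92% of 5761, and no region of the window passed the adjustment. The H3K36me3 region was chr8:19975001-19978600, with 0.70 (SE 0.22, edgeR adjusted p = 0.785). For H3K9me3 these were chr8:21274001-21278400, with -0.49 (SE 0.18), and chr8:19783201-19785000, with -0.56 (SE 0.24), both at an edgeR adjusted p of 0.999. The Gm10060 region missed the unadjusted threshold without male ethanol replicate 3, male water replicate 5, female ethanol replicate 2 or female water replicate 2. On H3K9me3 over input the estimates were -0.21 and -0.37, and for the H3K36me3 region 0.31 on H3K36me3 over input, none at the unadjusted threshold.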

How the data were processed

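The 3 listed genes, the window and the gene lists were chosen with earlier results of these data known. The authors trimmed reads with cutadapt, aligned them to GRCm38 (mm10) with Bowtie2 2.4.1, kept H3K9me3 reads mapping to a single place outside blacklisted regions, and called islands per library with SICER (200 bp windows, gaps of 400 bp for H3K9me3 and 600 bp for H3K36me3). Each ChIP library combined 8 precipitations. The deposited lists give, per island, ChIP and input read counts, a p-value, a fold ratio of ChIP to input and an FDR q-value. Reads outside islands were not analysed here.

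Regions were positions under listed islands of at least 11 of 22 libraries of a mark. Island counts were divided by overlap length and rounded, so neighbouring regions under 1 island share its reads. Regions in which all libraries of a fit had an island were tested with edgeR 4.0.16 (quasi-likelihood test, TMM factors, filterByExpr) in R 4.3.3, with sexes apart and Benjamini-Hochberg adjustment over all regions of the genome. DESeq2 1.42.0, and limma 3.58.1 on log2 of ChIP over input (pseudocount 0.5), were alternatives. Scripts were tested on simulated data. Named regions were those over the listed genes and, of the 3 of smallest p in each fit, those at the unadjusted threshold. Of the defensin genes, those with islands in at least 11 libraries were named with values, and Defa17 and Defa26 after their values were seen. Gene bodies were aligned with minimap2 2.31-r1302. Since pools are the replicates, p-values measure the spread between pools of 3 mice.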

Additional observations from a re-analysis of the deposited data

Results flagged for a closer look

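Of 88 groups of 5 or 6 libraries examined for a library far from the others, 8 held such a library, where chance alone gives about 1 in 20 groups. The groups share libraries and the window holds the genes, so this count cannot be read as an excess. Female ethanol replicate 2 stood apart in H3K36me3 over input for the window (1.44, the others 1.15 to 1.19), for 4930467E23Rik (1.501, the others 1.14 to 1.26) and for Gm21119 (1.59, the others 1.21 to 1.24). Female water replicate 4 was high for the same ratio over the window (1.31, the others 1.16 to 1.19). Male water replicate 1 had fewer kb of the window in H3K36me3 islands (757, the others 833.8 to 853.6) and a higher H3K36me3 over input of Gm31371 (1.13, the others 1.08 to 1.09). Female water replicate 2, which had few H3K9me3 islands at the FDR genome-wide, had the low H3K9me3 over input of Gm31371 (1.34, the others 1.65 to 1.73). Male ethanol replicate 4, the library with most H3K9me3 reads, had 154 ChIP reads per kb of window island (the others 95.8 to 107).

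At 3 regions the difference in ethanol effect between the sexes, female minus male, was at an unadjusted p of 0.05 or lower. H3K9me3 at chr8:21274001-21278400 near Defa3 had -0.49 on the log2 scale (edgeR adjusted p = 0.999), from 0.37 in males and -0.12 in females. H3K9me3 over Gm10060 (chr8:19783201-19785000) had -0.56 (edgeR adjusted p = 0.999), from 0.10 in males and -0.46 in females. H3K36me3 at chr8:19975001-19978600 had 0.70 (edgeR adjusted p = 0.785), from -0.29 in males and 0.40 in females. None passed the adjustment.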

How the results depend on the processing

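Each named region at the unadjusted threshold kept its sign in the alternatives run, although which regions were called and their directions changed, and no window region passed the adjustment in any of the edgeR, DESeq2 or limma fits of ethanol against water. The counts of window regions at an unadjusted p of 0.05 or lower moved. With islands at an FDR of at most 0.01, covering fewer regions, they were 2 of 47 for H3K9me3 in males and 0 of 25 in females. For the H3K9me3 interaction it was 1 of 24. Over the genome these fits called 280 of 11722, 197 of 6643 and 107 of 3929. For H3K36me3 they were 0 of 8 in males and 0 of 12 in females, against 4 of 61 and 5 of 189. For the sex difference of input it was 0 of 24, against 530 of 3929. With limma on ChIP over input the counts were 1 of 70 for H3K9me3 in females and 1 of 69 for its interaction. Over the genome these fits called 1302 of 27417 and 1075 of 22078. For H3K36me3 they were 1 of 33 in males and 0 of 33 in females, against 521 of 7533 and 452 of 9029. Leaving out TMM factors shifted the median of all male H3K36me3 regions by 0.18 (log2) and of the interaction by -0.21. The counts were then 1 of 33 for H3K36me3 in males (higher, where both had been lower) and 0 of 31 for its interaction. For male input it was 1 of 82 (lower, where 2 of 3 had been higher), against 1095 of 27938 over the genome. The H3K36me3 interaction call was higher over all islands and lower at the FDR, and its window median went from 0.13 to -0.26 at the FDR and -0.09 without TMM factors. DESeq2 gave 1 of 70 for female input, against 1250 of 27037 over the genome. Over the genome, 428 male H3K36me3 regions were called (195 higher) and 718 without TMM factors (689 higher), and 341 (166 higher) and 581 (14 higher) for the H3K36me3 interaction. For male H3K9me3, 824 were called by edgeR, 1523 by limma and 280 at the FDR, and for female H3K9me3 1087 by edgeR and 197 at the FDR. The female input difference of the window was -0.211 at the FDR, where it was -0.0503 over all islands, and the female difference of H3K9me3 over input, divided by the library median, was 0.0357, where it was -0.0127. The causes were not tested.

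Leaving out each library in turn gave 3 to 7 of 82 window regions for male H3K9me3. It gave 2 to 6 of 70 for female H3K9me3 and 1 to 7 of 69 for the interaction. Over the genome these fits called 787 to 1090, 944 to 1440 and 733 to 1040 regions in turn, of close to 27958, 27242 and 22078. Without male water replicate 2 the male H3K9me3 and interaction counts were 7, larger shares than 848 of 27959 and 806 of 22078 genome-wide. For H3K36me3 the window counts were 0 to 3 of 33 in males, 1 to 1 of 33 in females and 1 to 2 of 31 for the interaction. Genome-wide the H3K36me3 counts were 337 to 538, 295 to 370 and 291 to 394 in turn. For input the window counts were 1 to 5 of 82 in males and 0 to 1 of 70 in females. Genome-wide the input counts were 902 to 1100 and 928 to 1387. The H3K9me3 interaction had 7 without male water replicate 2, 6 without female water replicate 3, 5 without female water replicate 5, 4 without female ethanol replicate 5, and 1 without male water replicate 5, female ethanol replicate 2 or female water replicate 2. Female H3K9me3 had 6 without female water replicate 3 and 5 without female ethanol replicate 5 or female water replicate 5. Male H3K36me3 had 1 without male ethanol replicate 1, 2 or 4 or male water replicate 1 or 4, and its interaction 2 without male ethanol replicate 5, female ethanol replicate 3, or female water replicate 2 or 5. Male input had 5 without male ethanol replicate 5 and 1 without male water replicate 1 or 5. Female input had 1 without any of female ethanol replicates 1, 3 and 6 or of the 5 water pools. The window input difference had a lowest value of -0.0945 and a highest of -0.0158 for males, and -0.111 and 0.0178 for females.

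Same-numbered pools did not deviate together (correlations of -0.12 to 0.07 over 30 pairs, 2 of them best with their own number). The pairs are the same pools seen in H3K9me3, H3K36me3 and input. These values showed no pairing by number, but they cannot exclude one. With the replicate number as a block, the H3K9me3 window counts were 6 of 82 in males and 3 of 70 in females. The H3K9me3 interaction had 4 of 69. Over the genome these were 812 of 27958, 1024 of 27242 and 818 of 22078. H3K36me3 window counts were 1 of 33, 1 of 33 and 2 of 31, against 434 of 7533, 297 of 9019 and 369 of 5761. For input in males and females they were 3 of 82 and 2 of 70, against 933 of 27938 and 1085 of 27037.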
